A study of Mus musculus with 7 samples.

Results

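Mature Ccr7 dendritic cells were a small population in subcutaneous JW23.3 tumors, with 54 cells among 33136 retained cells of 39537 deposited. They were chosen by their own RNA from cells with at least 500 detected genes and at most 10% mitochondrial UMIs (unique molecular identifiers, 1 per captured transcript). A member had at least 1 Ccr7 UMI, at least 1 UMI of Fscn1 and Ccl22 together, and at least 10 UMIs per 10000 of the class II genes H2-Aa, H2-Ab1 and H2-Eb1 together. It also had fewer than 2 UMIs of the type 1 dendritic cell genes Xcr1 and Clec9a, no Cd3e, Cd3d or Cd3g UMI, fewer than 10 UMIs per 10000 of the macrophage genes C1qa, C1qb and C1qc, and at most 1 UMI of Tafa1, Unc5c and Col11a1, which are high in the tumor cells. The values of these genes in the members are therefore given as a description with no test.

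Whole tumors were dissociated and profiled by droplet single-cell RNA-seq, 1 library per tumor, to ask how fractionated radiotherapy alters the cells of a malignant peripheral nerve sheath tumor (MPNST) in a host with an intact immune system. JW23.3 is a single mouse MPNST line deleted for Nf1, and its cells are male. All hosts were female C57/B6 wildtype mice aged 5–6 weeks, which received 5000000 cells in the flank on day 0 and were randomized on day 7. The irradiated group (n = 4 tumors) received 5 daily fractions of 2 Gy with lead shielding around the tumor, the control group (n = 3 tumors) was not irradiated, and all tumors were collected on day 21, digested with papain for 45 minutes and loaded at 10000 cells. The labels call the tumors biological replicates.

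Mature dendritic cells are dendritic cells that have taken up antigen or met an inflammatory signal and have switched from sampling tissue to presenting antigen. CCR7, the receptor for the lymph node chemokines CCL19 and CCL21, guides them into lymphatics; fascin (Fscn1) bundles actin in their dendrites, and CCL22 draws T cells that carry CCR4. In tumors they are known for carrying stimulatory and inhibitory ligands on the same cell, a state described as mature and regulatory.

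Promoters are shown for both genes that share a gate term, Ccl22 and Fscn1, and for Nfkb2, which encodes a subunit of the alternative NF-κB pathway of dendritic cell maturation. The sequences are RefSeq's on GRCm38.p6, run from 250 bases before to 50 after the annotated start, lie on the plus strand, and have matches to GGGA, any 4 bases, CC in capitals (both strands searched). The windows are chr8:94745434-94745733 for Ccl22, chr5:142960105-142960404 for Fscn1 and chr19:46304487-46304786 for the first of 3 Nfkb2 starts.
Ccl22: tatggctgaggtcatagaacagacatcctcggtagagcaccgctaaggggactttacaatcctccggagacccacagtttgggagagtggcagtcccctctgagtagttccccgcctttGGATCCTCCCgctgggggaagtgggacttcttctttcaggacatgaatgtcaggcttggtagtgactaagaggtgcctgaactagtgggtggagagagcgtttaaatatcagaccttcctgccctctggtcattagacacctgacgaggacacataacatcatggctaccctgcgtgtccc
Fscn1: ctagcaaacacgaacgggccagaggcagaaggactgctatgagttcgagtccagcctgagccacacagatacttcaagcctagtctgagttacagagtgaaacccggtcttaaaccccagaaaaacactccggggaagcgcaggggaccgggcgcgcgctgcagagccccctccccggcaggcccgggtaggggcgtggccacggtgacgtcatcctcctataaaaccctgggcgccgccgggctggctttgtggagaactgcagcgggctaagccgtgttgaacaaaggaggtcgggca
Nfkb2: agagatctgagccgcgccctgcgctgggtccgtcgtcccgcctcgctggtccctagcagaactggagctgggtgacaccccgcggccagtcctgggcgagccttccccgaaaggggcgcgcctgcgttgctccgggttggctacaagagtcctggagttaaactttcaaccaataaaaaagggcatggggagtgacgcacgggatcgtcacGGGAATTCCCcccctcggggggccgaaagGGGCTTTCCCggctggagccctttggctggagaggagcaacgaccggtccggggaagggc
The Ccl22 window held 1 match, which began 131 bases before the start. The Nfkb2 window held 2, beginning 39 and 10 bases before it, and the Fscn1 window held none. Windows of Birc3 and Nfkbia held 1 and 2 matches, while those of Traf1 and Il12b held none. The motif was present in 11 of the 28 promoters found for a list of 40 genes of the mature dendritic cell program (39.3%), in 12 of 26 for a list of 30 NF-κB genes (46.2%), and in 20.5% of all 27025 promoters. A match describes the letters of the window and not binding. Ccr7, Relb, Cd83 and Ccl5 had no entry.

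The 7 libraries held 2859 to 8452 deposited cells and 53496570 to 153044123 UMIs, with a median of 6058.5 to 17930.5 UMIs per deposited cell. This median was 6058.5 to 9507 in irradiated tumor 1 and controls 2 and 3, and 9990 to 17930.5 in irradiated tumors 2, 3 and 4 and control 1. These technical sets are a split by depth with a small gap between them. The labels name no batch, and each set has only 1 tumor of a group. Differences inside each set follow the pooled differences of the shares and of some genes, for genes as the log2 ratio of mean levels plus 0.5 UMIs per 10000. By cell number the sets did not hold, because control 1 (6134 deposited cells) lay nearer to irradiated tumor 1 and the other controls (7291 to 8452) than to irradiated tumors 2 to 4 (2859 to 3780), which had no control beside them. Libraries shared 190 of 39347 distinct cell barcodes. The barcode of 1 member also occurred in another library, and none marked members of 2 libraries.

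Each step of the gate removed cells. Of the 297 retained cells with a Ccr7 UMI, 133 had an Fscn1 or Ccl22 UMI, 69 of these met the class II level, 68 the Xcr1 and Clec9a limit, 67 the Cd3 limit, 59 the C1q limit and 54 the tumor gene limit. At the edges, 7 members had a single Ccr7 UMI and 8 had a single UMI of Fscn1 and Ccl22 together, the lowest member level of class II genes was 10.7 UMIs per 10000, and the highest C1q level was 9.86. Just outside, 24 cells that met all other terms had class II levels of 0 to 9.45 UMIs per 10000, 6 had C1q levels of 48.7 to 141, 5 had 2 to 78 tumor gene UMIs, and 1 had 9 Xcr1 and Clec9a UMIs. A further 28 cells lacked only Ccr7, and 46 lacked only Fscn1 and Ccl22.

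The 54 members came from all 7 tumors, with 9, 4, 6 and 8 cells from irradiated tumors 1 to 4 and 7, 7 and 13 from control tumors 1 to 3. They held 1095 to 27526 UMIs (median 7658.5), 447093 in all, and 554 to 5427 genes (median 2348). No member was called a doublet by Scrublet, which marked 0.715% to 2.90% of retained cells per library. Xist, which the female hosts and not the male tumor cells express, was found in 47 members, and the 7 without it had a median of 3392 UMIs. A single cell held from 13.7% (control 3) to 53.4% (irradiated 2) of a tumor's member UMIs.

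Mature Ccr7 dendritic cells were a small share of both groups, and the groups overlapped by every denominator. Of retained cells they were 0.143%, 0.173%, 0.197% and 0.272% in irradiated tumors 1 to 4 and 0.138%, 0.101% and 0.197% in control tumors 1 to 3. Only irradiated tumor 4 lay above all 3 controls. The means were 0.196% ± 0.0554 (SD, n = 4) and 0.146% ± 0.0484 (SD, n = 3), a difference of 0.0507 percentage points (two-sided exact permutation test, p = 0.286, adjusted p = 0.714 over 3 shares). Within the technical sets the difference was -0.0067 and 0.0759 points. The smallest p that 35 arrangements of 7 tumors allow is 0.0286.

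Of cells with a Ptprc UMI (Ptprc encodes the leukocyte antigen CD45), members made up 0.407%, 0.345%, 0.436% and 0.416% in irradiated tumors 1 to 4 and 0.383%, 0.253% and 0.462% in controls 1 to 3. Controls held both the lowest and the highest value. The means were 0.401% ± 0.0396 (SD, n = 4) and 0.366% ± 0.106 (SD, n = 3), and the difference of 0.0349 points was within the spread between tumors (exact permutation test, p = 0.629, adjusted p = 0.714; 0.0498 and 0.0156 points within the sets). Wilson 95% intervals of single tumors, which cover counting error only, ran from 0.123% to 0.521% in control 2 and from 0.200% to 0.949% in irradiated 3.

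Among gated dendritic cells, members were counted with 38 type 1 cells (at least 2 Xcr1 and Clec9a UMIs) and 92 type 2 cells (no Ccr7 UMI, at least 2 UMIs of Flt3 and Cd209a), both under the same class II, Cd3, C1q and tumor gene limits. The members' share was 20.9%, 33.3%, 42.9% and 24.2% in irradiated tumors and 31.8%, 35% and 32.5% in controls. The irradiated tumors spread on both sides of the narrow control range. The means were 30.3% ± 9.85 (SD, n = 4) and 33.1% ± 1.68 (SD, n = 3), with a difference of -2.77 points (exact permutation test, p = 0.714, adjusted p = 0.714), of -12.8 and 1.66 points within the sets. Irradiated tumor 1, the irradiated tumor with a cell number near the controls, lay within the control range for both other shares and below it here.

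**Figure D1:**
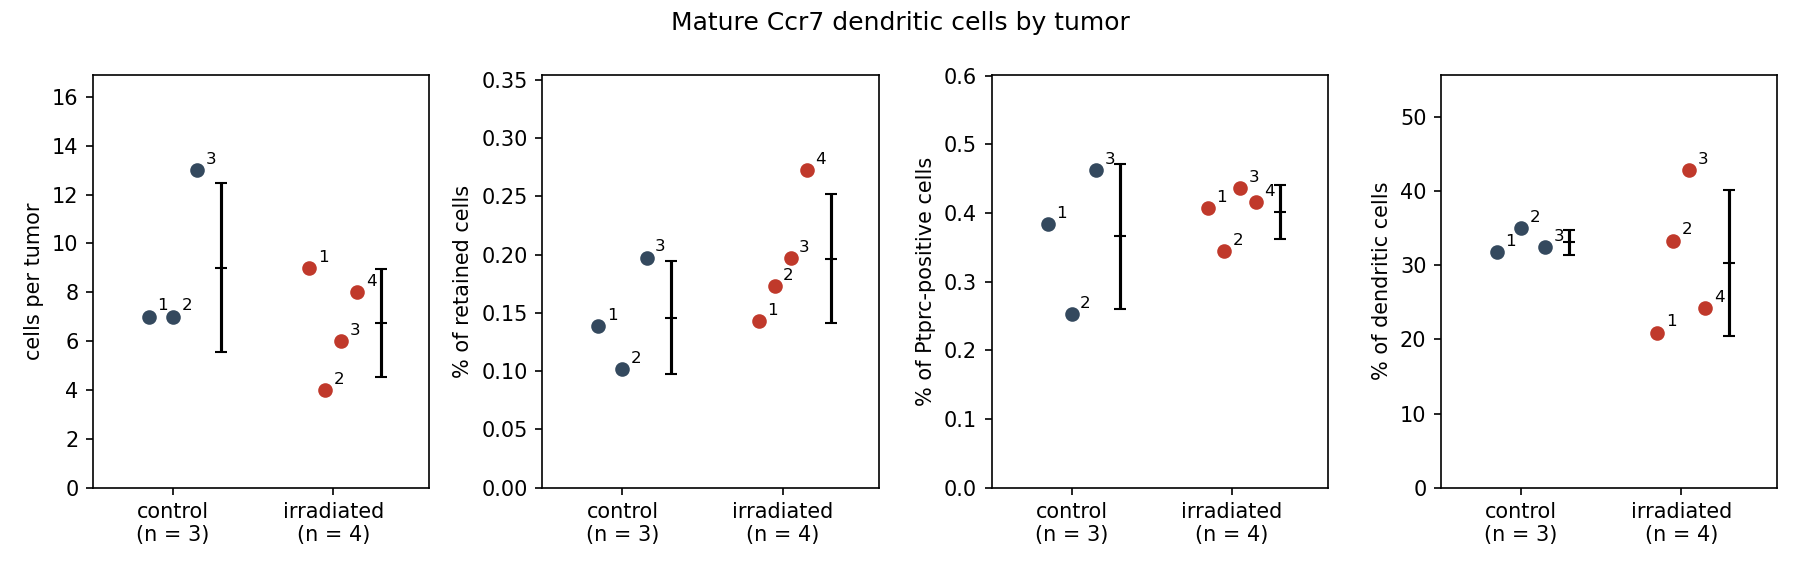
Mature Ccr7 dendritic cells per tumor as a number and as a percentage of retained cells, Ptprc-positive cells and gated dendritic cells; each numbered point is a tumor, and bars give the mean ± SD of 3 control and 4 irradiated tumors. The groups overlap in every panel, from 0.101% to 0.197% of retained cells in controls and from 0.143% to 0.272% in irradiated tumors.

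The 3 genes that marked the population were present at unequal levels. Ccr7 was required and stood at 24.6, 11.2, 16.7 and 10.9 UMIs per 10000 in irradiated tumors 1 to 4 and 11.9, 17.5 and 9.45 in control tumors 1 to 3. Irradiated tumor 1 was the highest and control 3 the lowest. Fscn1 had UMIs in 41 members at 28.1, 7.02, 16.1 and 17.1 UMIs per 10000 in irradiated tumors 1 to 4 and 12.8, 19.6 and 33.6 in control tumors 1 to 3, and Ccl22 in 39 at 7.66, 2.53, 14.1 and 4.97 UMIs per 10000 in irradiated tumors 1 to 4 and 4.22, 7.77 and 10.8 in control tumors 1 to 3. Irradiated tumor 2 was lowest for both genes, 26 members had both, 15 had Fscn1 alone and 13 Ccl22 alone, and the groups overlapped for all 3 genes. For comparison, Ccr7 UMIs were found in 0.253% of 13467 tumor-side cells and Ccl22 UMIs in 0.0371%. Tumor-side cells had at least 10 UMIs of the 3 tumor genes and no Ptprc UMI (median 25075 UMIs). Fscn1 was found in 94.5% of them at 3.01 UMIs per 10000, against 20.9 over the pooled members. Among 976 cells with at least 3 Cd3 UMIs (median 4008 UMIs), 6.56% had Ccr7, 5.84% Fscn1 and none Ccl22.

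The label was checked against a list of 40 genes of the mature dendritic cell program, of which 39 had UMIs in the members and 34 were higher in the members than in the tumor's other dendritic cells in every tumor. The list's summed level was 231 to 455 UMIs per 10000 in the members and 30.4 to 58.2 in the other dendritic cells. These differences have no test, because the gate set the classes apart by their RNA. Summed levels also hide members that differ. A control 1 member of 15224 UMIs and control 3 members of 6892, 10844 and 10889 UMIs passed the gate narrowly. They had 1, 1, 4 and 1 Ccr7 UMIs and 1, 1, 1 and 2 UMIs of Fscn1 and Ccl22 together. All held UMIs of the type 2 marker Cd209a, of Il1b and of Il1r2. An irradiated 2 member of 19020 UMIs and a control 2 member of 7232 UMIs also had 1 UMI of Fscn1 and Ccl22 together. Their Ccr7 UMIs were 9 and 3. Both held Il1b and Il1r2 UMIs and none of Cd209a or Ccl5. The irradiated 2 member held 53.4% of that tumor's member UMIs. Whether any of these members are type 2 cells was not tested. Ccl19, which encodes a ligand of CCR7 itself, was the only program gene with no UMI in the members, and Ccl17, the partner of Ccl22 as a CCR4 ligand, was found in 10 of 54 cells.

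Maturation and NF-κB genes were found across the members. Cd83, a surface marker of mature dendritic cells that stabilizes class II molecules, was found in 53 of 54 cells, at a pooled 17.2 UMIs per 10000 against 6.78 in type 1 and 5.6 in type 2 cells. Traf1, a signaling adaptor of the TNF receptor family and an NF-κB target, was found in 52 cells (8.79 against 0.98 and 2.08). Relb, the partner of p52 in the alternative NF-κB pathway, was found in 48 cells (6.71 against 0.575 and 1.05), and Rel, the c-Rel subunit, in 51 cells (20.3 against 4.65 and 7.32). Tumor-side cells, whose median depth was 25075 UMIs, had UMIs of Cd83 in 3.11%, Traf1 in 13.1%, Relb in 51.2% and Rel in 45.0%. The list of 30 NF-κB genes had UMIs of all 30 in the members, 27 of them at a higher pooled level than in the other dendritic cells and 15 higher in every tumor. Of 3147 genes with at least 0.5 UMIs per 10000, 398 were higher in every tumor. No share over all genes was computed for pooled levels.

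Stimulatory and inhibitory ligands were found in the same population. The B7 ligands of CD28, Cd86 and Cd80, each had UMIs in 46 cells, at pooled levels of 12.9 and 6.55 UMIs per 10000, while type 2 cells had 11.7 and 2.49. Cd40, the receptor through which T helper cells license dendritic cells, was found in 32 cells at 2.01. Cd274, which encodes PD-L1, was found in 45 cells at 10.8 against 1.17 in type 1 and 2.07 in type 2 cells, and Pdcd1lg2, which encodes PD-L2, in 24. The secreted amino acid oxidase gene Il4i1 was found in 37 members and Cd200, whose product restrains myeloid cells through its receptor, in 25. Ido1 and Ido2, tryptophan-degrading enzymes of regulatory dendritic cells, had no UMI among 447093, which allows a level of up to 0.0671 UMIs per 10000 (3 UMIs, counting error only). Cd274 was also found in 42.4% of cells with Cd3 UMIs and in 7.20% of tumor-side cells, and Cd200 in 8.61% and 52.7%, whereas Cd86, Cd80 and Cd40 were found in 2.06%, 1.99% and 0.319% of tumor-side cells.

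**Figure D2:**
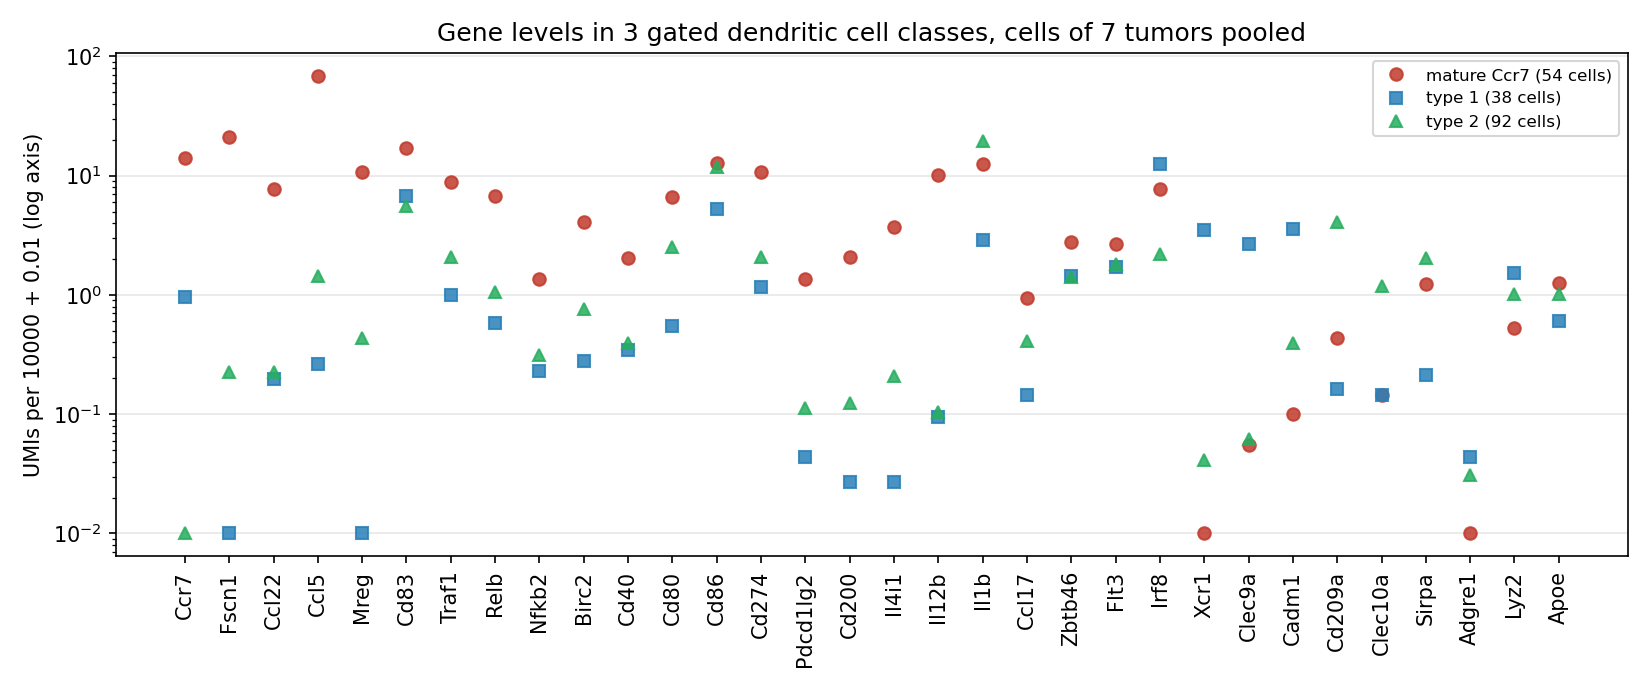
Pooled levels of 32 genes in mature Ccr7, type 1 and type 2 dendritic cells, in UMIs per 10000 plus 0.01 on a log axis; each point pools the cells of all 7 tumors. Ccl5 stood at 68.7 in mature cells against 0.253 and 1.44, while Cd209a stood at 0.425 against 4.1 in type 2 cells; the classes were gated on Ccr7, Fscn1, Ccl22, Xcr1, Clec9a, Flt3 and Cd209a among others.

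Ccl5, a chemokine that draws T cells and monocytes, was the chemokine with the most UMIs and the gene with the largest mean log2 ratio over other dendritic cells (5.63). It held 3070 UMIs in 44 of 54 cells, at 46.3, 89.3, 28.0 and 15.9 UMIs per 10000 in irradiated tumors 1 to 4 and 63.8, 207 and 97.1 in control tumors 1 to 3. The 5 cells with the most held 55.3% of them. A single cell of control 2 held 678 of that tumor's 825, and a single cell of irradiated tumor 2 held 317 of 318. Cells with Cd3 UMIs carried Ccl5 in 55.7% and tumor-side cells in 14.8%, at 0.713 UMIs per 10000. Among other chemokines, Cxcl16, the membrane-bound ligand of CXCR6, was found in 50 cells, the CXCR3 ligands Cxcl9 and Cxcl10 in 8 and 14, and Ccl4 in 11.

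Il12b, which encodes the p40 subunit shared by interleukins 12 and 23, ranked after Ccl5 by mean log2 ratio over other dendritic cells (3.90). It was found in 28 members at 15.5, 4.77, 17.4 and 3.1 UMIs per 10000 in irradiated tumors 1 to 4 and 14.1, 8.27 and 8.71 in control tumors 1 to 3. Irradiated tumors held both the highest and the lowest values. The partner subunits were at 0, with no UMI of Il12a or Il23a in any member. Il12b was found in 0.0297% of tumor-side cells and in none of the Cd3 cells (median 4008 UMIs).

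Il1b, the inflammasome-processed cytokine, was found in 35 members at 11.3, 12.9, 17.6 and 8.62 UMIs per 10000 in irradiated tumors 1 to 4 and 18.8, 9.28 and 10.9 in control tumors 1 to 3. The groups overlapped, and the pooled level of 12.5 lay below that of type 2 cells (19.4). Il1r2, the decoy receptor for interleukin 1, was found in 26 members, 22 of them among the 35 with Il1b and 4 among the 19 without. The 22 include the members with Cd209a UMIs that passed the gate narrowly. Il12b was divided differently. Of its 28 cells, 14 also held Il1b, while 21 members held Il1b without Il12b and 5 held neither. The median was 7711 UMIs for cells with Il12b alone and 10844 for cells with Il1b alone. Cells with both Il1b and Il1r2 had a median of 10829.5 UMIs against 7568 for cells with neither, so depth moved with this overlap, and its part was not tested. Tumor-side cells had Il1b in 4.31% and Il1r2 in 2.95%. Interleukin 10, Il1a and Ifnb1 had no UMI in the members.

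**Figure D3:**
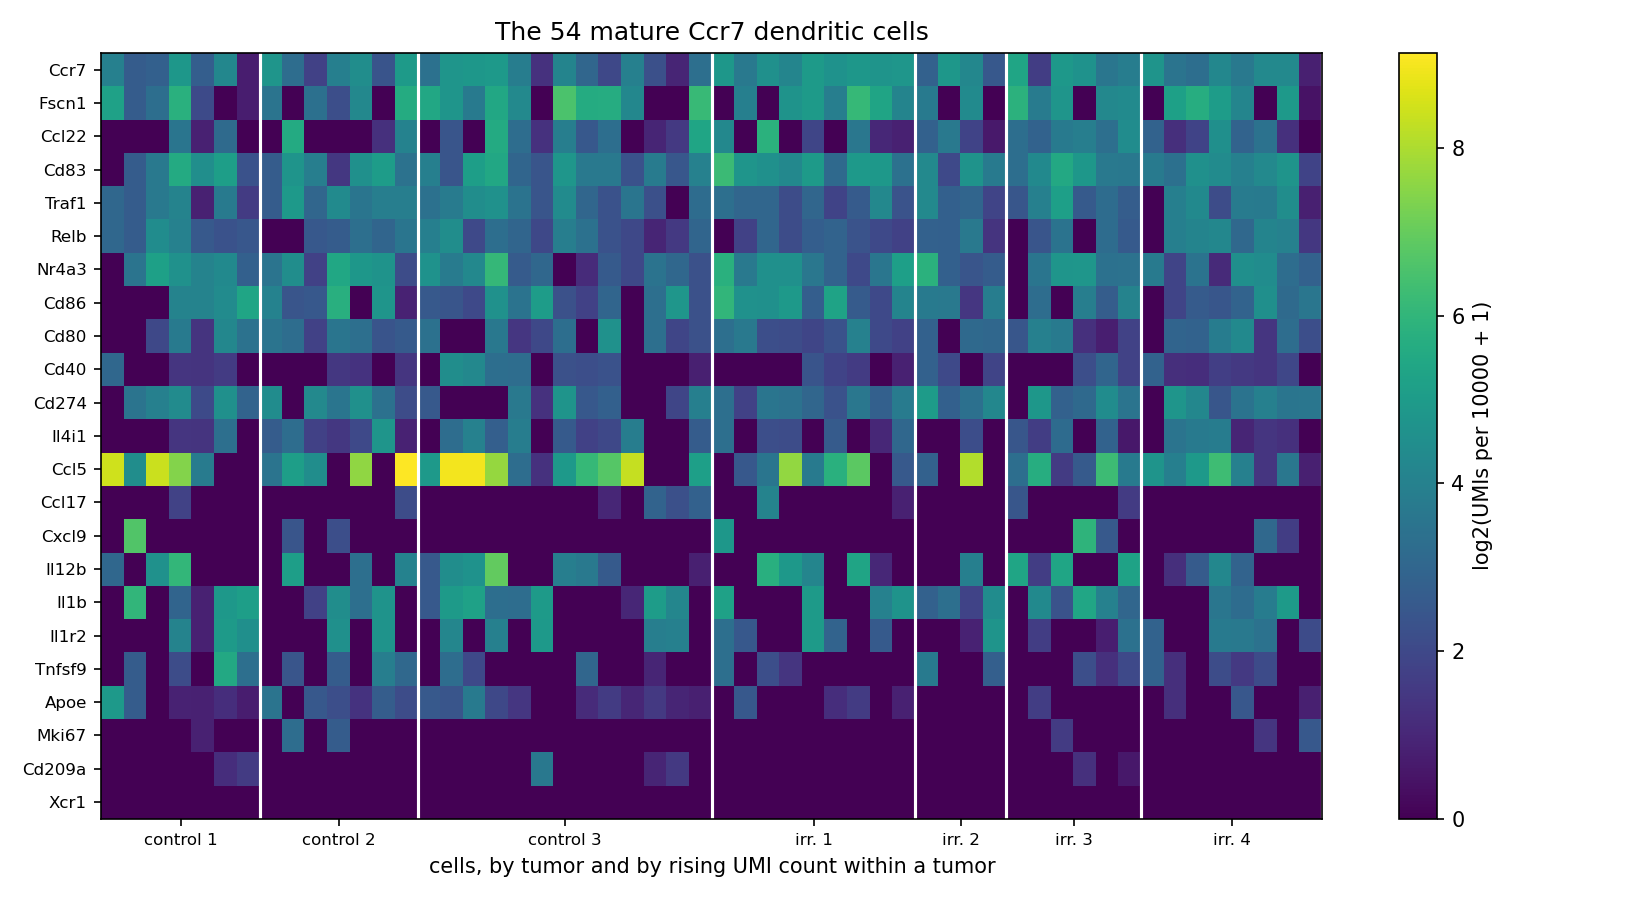
The 54 members in columns, by tumor and by rising UMI count, and 23 genes in rows, as log2 of UMIs per 10000 plus 1. Cd83, found in 53 cells, fills its row, whereas Ccl5 is highest in a few cells, Cxcl9 appears in 8 cells and Xcr1 in none.

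Other genes with the largest ratios over other dendritic cells included Mreg, which acts in organelle transport (mean log2 ratio 3.82), Cd63, a lysosomal tetraspanin (3.00), Serpinb9, an inhibitor of granzyme B (2.92), and AW112010 (2.84), followed by Samsn1 and Cacnb3 (2.82 and 2.72). The next were Tmtc2, Tmcc3, Bcl2l14, Atxn1, Tmem123, Ankrd33b, Stat4, Pcgf5, Zmynd15, Ramp3, Itga4 and Fabp5, at 2.58 to 2.68. Of 3147 genes with at least 0.5 UMIs per 10000, gate genes left out, 398 were higher in the members than in other dendritic cells of the same tumor in all 7 tumors. Cd63 was also found in 96.7% of tumor-side cells, at 6.68 UMIs per 10000 against 5.84 in the members.

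Antigen presentation and migration genes were abundant. Cd74, the class II invariant chain, stood at a pooled 126 UMIs per 10000, below 169 in type 1 and 190 in type 2 cells, and the list of 16 class II pathway genes had 4 members at a higher pooled level than in other dendritic cells. For class I, 14 of 23 genes were higher, with B2m, the class I light chain, at 26.8 against 10.3 and 11.4. The share of all genes with a higher pooled level was not computed, so neither pooled count has a background. In every tumor, 2 of the 16 class II and 10 of the 23 class I genes were higher. Of 3147 genes with at least 0.5 UMIs per 10000, a floor not set for the lists, 398 were higher in every tumor. Actb and Tmsb4x, the actin gene and a binder of free actin, stood at 206 and 243, and the actin-binding gene Lsp1 at 15.3 against 7.05 and 6.42. Of 17 chemokine receptor genes, 10 had UMIs, led by Gpr183, the oxysterol receptor that positions dendritic cells (4.43).

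Lineage genes were mixed. Irf8, the type 1 lineage factor, stood at 7.76 UMIs per 10000, between type 1 (12.4) and type 2 cells (2.21), and Batf3, its partner in type 1 cells, was found in 20 members. Of the type 2 markers, Sirpa was found in 27 members, Klf4 in 21, Cd209a in 7 and Clec10a in 2. The 14 type 1 markers summed to 9.38 to 13.9 UMIs per 10000 in irradiated and 11.7 to 13.1 in control tumors, and the 14 type 2 markers to 8.91 to 23.6 and 14.5 to 37.0. Most of the type 2 sum of control 1 came from Il1r2 (16.2) and Tnfsf9 (14.1), and the other 12 type 2 markers summed to 2.81 to 6.18 and 5.52 to 7.14. Zbtb46 and Flt3, which mark conventional dendritic cells, were each found in 39. Among 30 cell cycle genes, 9 members had Mki67 or Top2a UMIs and 3 had at least 3 of them, and the list's sum was 0.842 to 4.01 in 6 tumors and 21.4 in irradiated tumor 4. A single cell of irradiated tumor 4, with 27526 UMIs, 2 Ccr7 UMIs and 1 UMI of Fscn1 and Ccl22 together, held 178 of that tumor's 194 UMIs of the list, and without it the sum was 2.54.

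Markers of other cells were low in the members. Of 17 macrophage markers 12 had UMIs, summing to 3.64 to 7.30 UMIs per 10000 in irradiated and 7.15 to 8.27 in control tumors, with Adgre1 (F4/80), Mertk, Folr2, Cd163 and Gpnmb at 0. Of 16 T and NK markers 3 had UMIs (1.41 to 3.09 and 0.251 to 3.57), mostly Il7r over the pooled cells, while Trbc1, Trbc2, Lck and Nkg7 were at 0. Of 16 MPNST markers 7 had UMIs (0.663 to 1.72 and 1.05 to 3.41), with Sox10 and S100b at 0. Sums of 10 monocyte markers were 0.469 to 22.5 and 2.76 to 4.55, and irradiated tumor 2, at 22.5, stood above the rest. Of 10 granulocyte markers 4 had UMIs (3.64 to 14.3 and 6.30 to 16.4), nearly all Il1r2, with S100a8 and S100a9 at 0. Of 10 plasmacytoid markers 5 had UMIs (5.00 to 10.8 and 4.93 to 7.77), and Siglech had 1. B cell, endothelial, fibroblast, keratinocyte and Langerhans lists summed to at most 3.13 in any tumor, and Cd207, the Langerhans cell lectin, was at 0.

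No gene passed the test between irradiated and control members. UMI counts were summed per tumor and compared with edgeR's quasi-likelihood test over the 1264 genes that passed a filter on low counts, and 0 genes (0%) had an adjusted p under 0.05, while 38 had an unadjusted p under 0.05 (20 higher and 18 lower, the smallest adjusted p being 0.732). The fitted value was higher in irradiated tumors for 621 genes (49.1%), with a median log2 fold change of -0.01. The 4 irradiated tumors all lay above the 3 controls for 36 genes (2.85%) and all below for 19 (1.5%). With 4 to 13 cells per tumor, fold changes of single genes had standard errors from 0.19 for B2m to 1.00 for Ifi27l2a on the log2 scale, among genes with a value given here. DESeq2, a second count test, called 1 gene, Pde4d.

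Pde4d, a cyclic AMP phosphodiesterase, had the smallest p. It stood at 7.04, 15.2, 9.44 and 10.1 UMIs per 10000 in irradiated tumors 1 to 4 and 2.44, 1.25 and 4.2 in control tumors 1 to 3. Each irradiated tumor exceeded each control. The difference was 1.85 ± 0.42 (SE) as a log2 fold change (edgeR, unadjusted p = 0.000579, adjusted p = 0.732), or 1.22 and 2.04 within the technical sets. DESeq2 gave an adjusted p of 0.0445. Pde4d UMIs were found in 24 members, 3 of which held at least 50% of them, and in 92.2% of tumor-side cells at 4.05 UMIs per 10000.

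The other genes with the smallest p in the higher direction were Zcchc7, Slc8a1, the sodium-calcium exchanger, Resf1 and Serinc3, with log2 fold changes of 1.21 to 1.77 and unadjusted p of 0.00662 to 0.0152. In the lower direction, Arhgap24, a Rac GTPase-activating gene, stood at 0.156, 1.68, 0 and 0 UMIs per 10000 in irradiated tumors 1 to 4 and 7.47, 3.76 and 2.41 in control tumors 1 to 3. Every irradiated tumor lay below every control, and 2 of them were at 0. Only 8 members had it, the 5 highest held 91.2% of its UMIs, and it was found in 93.3% of tumor-side cells. On the log2 scale the fold change was -3.80 ± 0.95 (SE) (edgeR, unadjusted p = 0.00209, adjusted p = 0.992), or -2.45 and -2.91 within the technical sets. Apoe, a lipid carrier that macrophages make in quantity, stood at 0.938, 0, 0.166 and 0.884 UMIs per 10000 in irradiated tumors 1 to 4 and 1.62, 3.76 and 1.68 in control tumors 1 to 3. The groups did not overlap, the macrophage marker sum of which it is part moved with it, and their relation was not tested. Its log2 fold change was -2.0 ± 0.68 (SE; edgeR, unadjusted p = 0.0114, adjusted p = 0.992), or -1.16 and -1.32 within the technical sets. Dapk1, Ptpn4 and Pkm completed the lower set, at -1.54, -1.33 and -1.48. None passed adjustment.

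Members of the mature program lay on both sides of 0. Of 30 program genes tested, 12 had higher and 18 lower fitted values in irradiated tumors, none was called, and the median log2 fold change was -0.02 against -0.01 over all genes. Ccl5 had the largest change of the list. The 3 controls averaged 123 ± 74.8 (SD) and the 4 irradiated tumors 44.9 ± 32.1 UMIs per 10000. Irradiated tumor 2 lay above control 1, and 1 of its cells held 317 of its 318 Ccl5 UMIs. The log2 fold change of Ccl5 was -1.47 ± 0.58 (SE) (edgeR, unadjusted p = 0.0315, adjusted p = 0.992), or -1.70 and -0.52 within the technical sets. It became a call, with an adjusted p of 0.044, when every gene with at least 1 UMI was tested. Cd83, at 21.9, 16.0, 18.6 and 14.0 UMIs per 10000 in irradiated tumors 1 to 4 and 23.6, 16.0 and 12.9 in control tumors 1 to 3, differed by -0.02 ± 0.26 (SE), and Cd274 by 0.23 ± 0.30 (SE).

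Of 15 costimulatory genes, 5 were tested. All 5 had lower fitted values in irradiated tumors (median -0.38), as did 643 of all 1264 genes tested, and none was called. The largest change was that of Tnfsf9, the 4-1BB ligand that costimulates CD8 T cells. It stood at 0.625, 3.65, 2.15 and 1.22 UMIs per 10000 in irradiated tumors 1 to 4 and 14.1, 5.77 and 1.05 in control tumors 1 to 3. Controls 1 and 2 were high, and control 3 lay below 3 of the irradiated tumors. The log2 fold change was -1.96 ± 0.77 (SE) (edgeR, unadjusted p = 0.0284, adjusted p = 0.992), or -1.80 and -2.37 within the technical sets. A single cell of control 1 held 68 of that tumor's 87 Tnfsf9 UMIs. That cell (15184 UMIs, 27 of Ccr7) also had UMIs of Cd209a, Il1b and Il1r2 and none of Fscn1 or Ccl5. Tnfsf9 is also on the list of type 2 markers. Without the filter on low counts the edgeR adjusted p of Tnfsf9 was 0.0272. Cd86 and Cd80 differed by -0.39 ± 0.31 (SE) and -0.38 ± 0.33 (SE). Inhibitory genes were divided, with 3 of 6 higher and a median of -0.12.

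**Figure D4:**
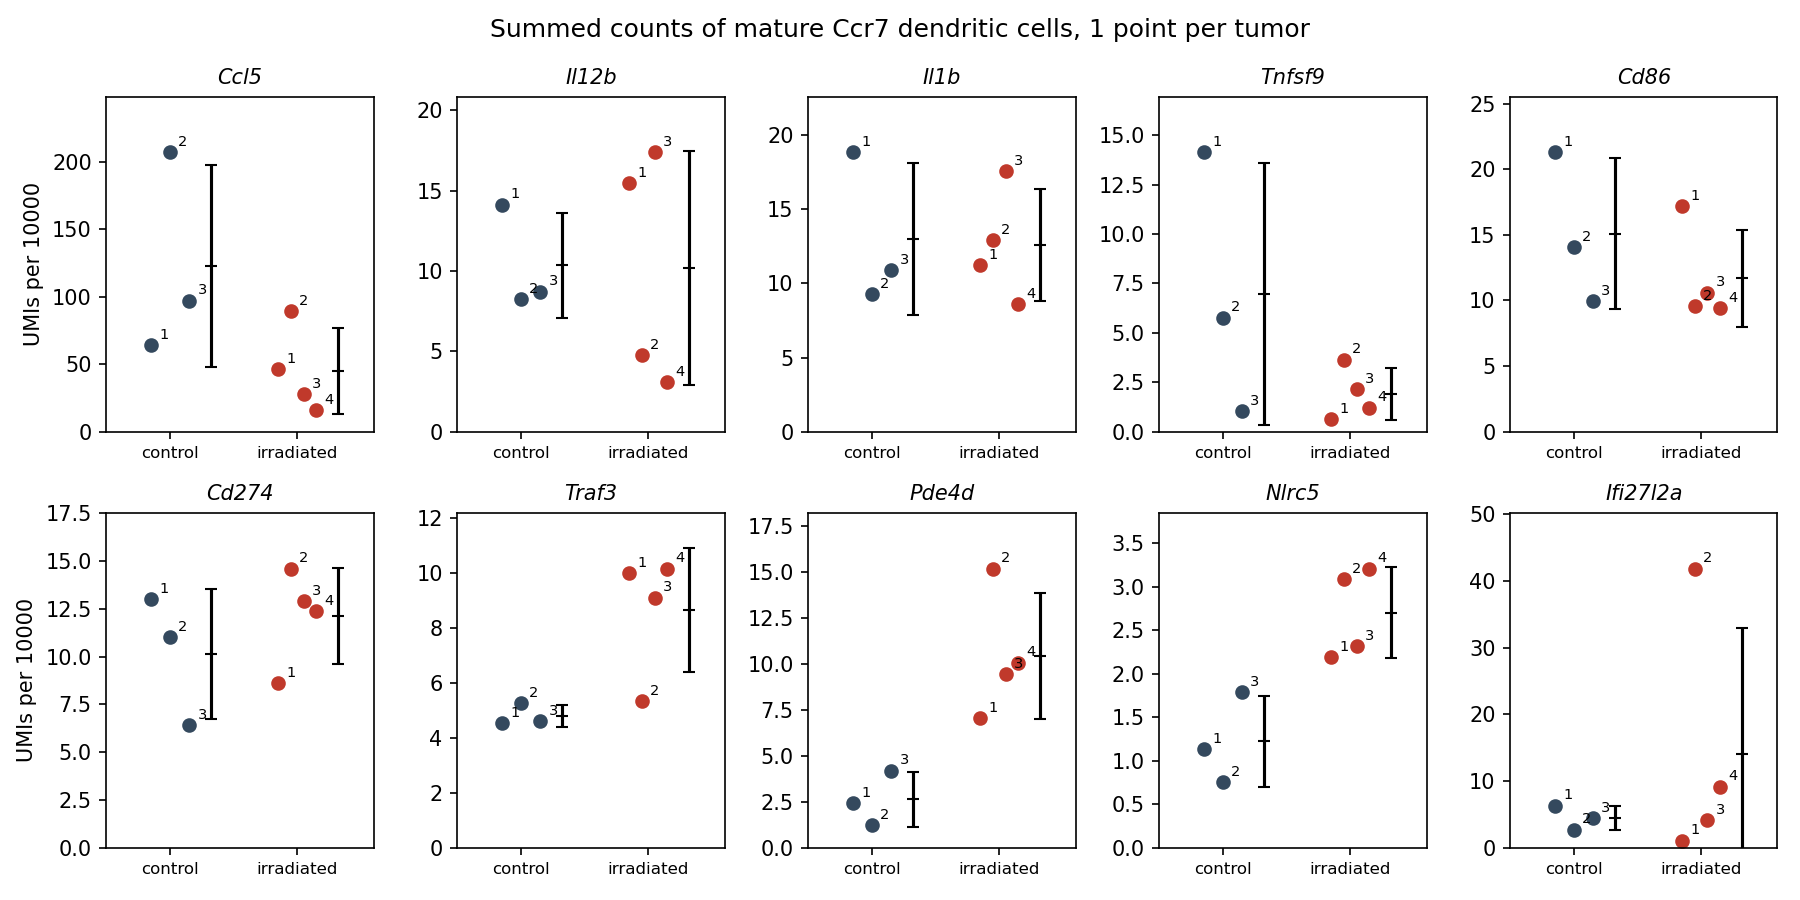
Levels of 10 genes in the summed members of each tumor, in UMIs per 10000; numbered points are tumors and bars the mean ± SD of 3 control and 4 irradiated tumors, with lower ends cut at 0. Traf3, Pde4d and Nlrc5 do not overlap between groups (5.34 to 10.2 against 4.55 to 5.26 for Traf3), the others do, and no gene shown was called by edgeR.

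Most interferon-stimulated and class I genes tested had higher fitted values in irradiated tumors, and none passed the test. Of 40 type I interferon genes, all with UMIs, 10 were tested, 7 of them higher in irradiated tumors, with a median log2 fold change of 0.55 against -0.01 over all genes. Ifi27l2a, an interferon-induced mitochondrial gene, stood at 1.09, 41.8, 4.14 and 9.17 UMIs per 10000 in irradiated tumors 1 to 4 and 6.34, 2.76 and 4.41 in control tumors 1 to 3. Irradiated tumor 2, whose 4 cells included 1 with 53.4% of the UMIs, was high, and irradiated tumor 1 was the lowest of all. Its log2 fold change was 1.55 ± 1.00 (SE) (edgeR, unadjusted p = 0.155, adjusted p = 0.992). Among irradiated tumors the summed level of the 40 genes had the same order, at 28.8, 147, 43.4 and 76.1 UMIs per 10000 in irradiated tumors and 52.96, 60.7 and 31.2 in controls. Ifi27l2a is itself part of this sum, so the orders are not independent. The monocyte marker sum was also highest in irradiated tumor 2, and its part was not tested.

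Of 14 class I pathway genes tested, 10 were higher (median 0.24), and the groups did not overlap for 2, both higher, where 2.85% of all genes tested were higher and 1.5% lower without overlap. One was Nlrc5, the class I transactivator, at 2.19, 3.09, 2.32 and 3.21 UMIs per 10000 in irradiated tumors 1 to 4 and 1.14, 0.752 and 1.78 in control tumors 1 to 3. Every irradiated tumor lay above every control. The log2 fold change was 1.01 ± 0.44 (SE) (edgeR, unadjusted p = 0.0398, adjusted p = 0.992), or 0.60 and 1.04 within the technical sets, and B2m differed by 0.17 ± 0.19 (SE). Class II pathway genes were divided, with 6 of 9 higher and a median of 0.01, as were 4 type II interferon genes (2 higher, 0.03).

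Of 18 NF-κB genes tested, 8 were higher and 10 lower (median -0.04). Traf3, which restrains the alternative pathway by promoting turnover of its kinase, stood at 10.0, 5.34, 9.11 and 10.2 UMIs per 10000 in irradiated tumors 1 to 4 and 4.55, 5.26 and 4.62 in control tumors 1 to 3. The groups did not overlap, by a margin of 5.34 over 5.26. The log2 fold change was 0.83 ± 0.31 (SE) (edgeR, unadjusted p = 0.0189, adjusted p = 0.992), or 0.95 and 0.79 within the technical sets, and Tnfrsf11a, the receptor RANK, differed by 0.96 ± 0.52 (SE). Rel and Traf1 differed by -0.11 ± 0.24 (SE) and -0.38 ± 0.31 (SE).

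Of 3 chemokine genes tested, 1 was higher and 2 lower (median -0.75). Both cytokines tested were near 0, with Il12b at -0.06 ± 0.53 (SE) and Il1b at -0.09 ± 0.32 (SE). Migration genes were divided evenly, with 9 of 18 higher (median 0.01). Of 7 apoptosis regulators, 3 were higher (median -0.05). Lineage genes had 3 of 7 higher (-0.18), and 11 of 17 dissociation stress genes were higher (0.16), with Hspa1a, a heat shock chaperone, at 1.22 ± 0.87 (SE). No cell cycle gene passed the filter, and 1 chemokine receptor did, Gpr183 at -0.85 ± 0.52 (SE).

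**Figure D5:**
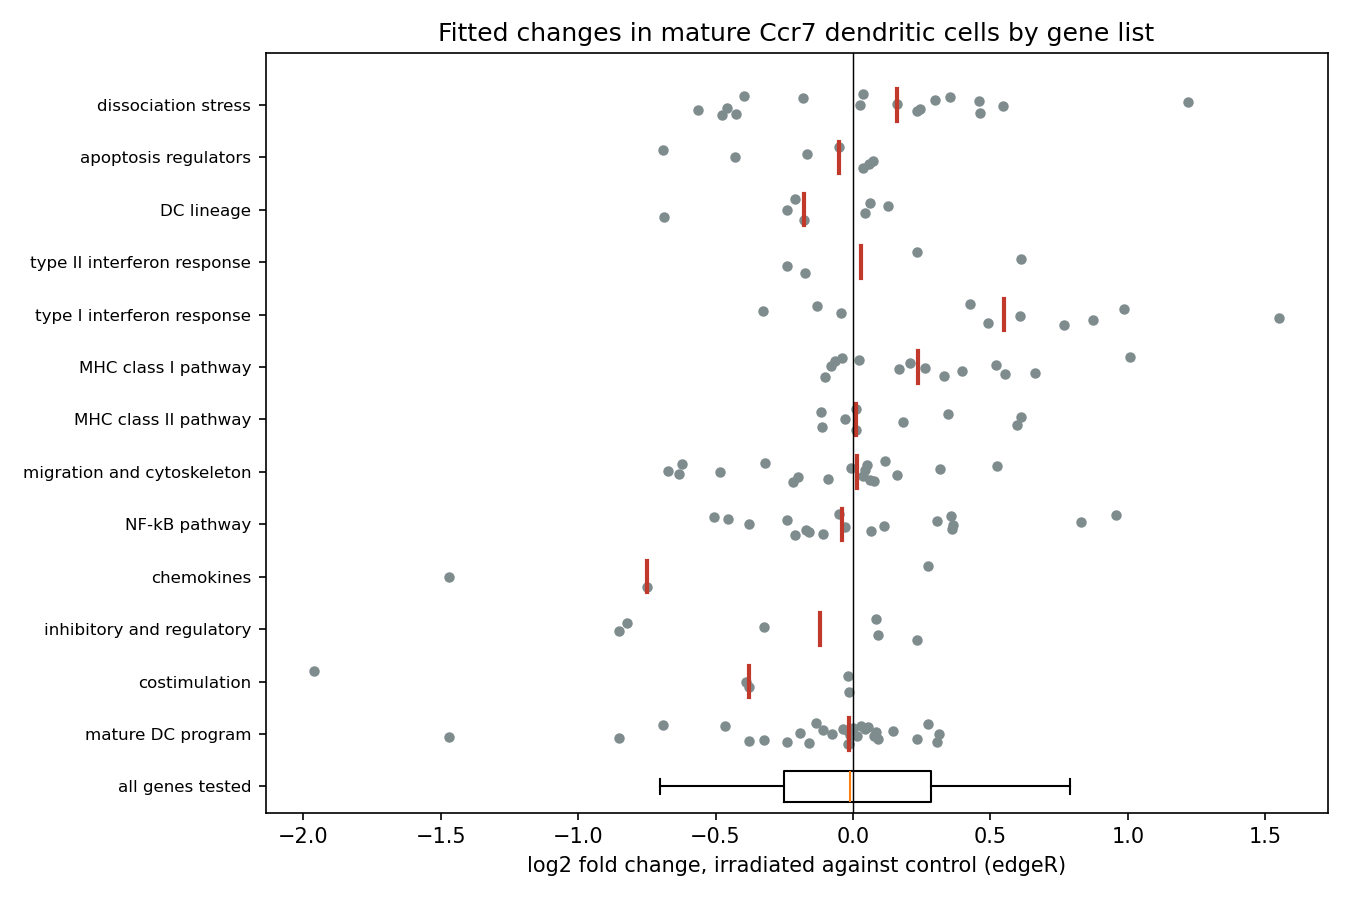
Fitted log2 fold changes, irradiated against control, of the tested genes of lists with at least 3 tested, with a list of p53 targets left out. Gray points are genes, red lines list medians, and the box shows the quartiles of all 1264 genes with whiskers at the 5th and 95th percentiles. The type I interferon list has a median of 0.55, the costimulation list one of -0.38 and the chemokine list (3 genes) one of -0.75, and no gene was called.

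A direct comparison asked whether the response to irradiation differed between the members and the other dendritic cells of the same tumors. In an edgeR fit with tumor as a block and a class by group term, 0 of 2599 genes (0%) had an adjusted p under 0.05, and 74 had an unadjusted p under 0.05 (smallest adjusted p 0.999).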

How the data were processed

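The authors deposited tables of UMI counts, with a row for each gene and a column for each called cell, of 7 droplet libraries. Per the file headers, they were made with Cell Ranger 8.0.0, whereas the methods name an earlier version and mm10, so the counts may differ from those the study analysed. The files do not state a build. Counts of 33696 genes were read as deposited. The class II and C1q terms of the gate were scaled to 10000 UMIs per cell, and its other terms used UMI counts. Scrublet was run in scanpy 1.11.5. The members, gene lists, named-gene rule and alternatives were chosen with earlier results of these data known. Shares per tumor were compared by two-sided exact permutation tests with Benjamini-Hochberg adjustment over 3 shares. The UMIs of a tumor's members were added up, and the sums entered edgeR 4.0.16 (R 4.3.3; filterByExpr, TMM, quasi-likelihood with Benjamini-Hochberg adjustment, gate genes left out), with DESeq2 1.42.0 as an alternative. The interaction fit added type 1 and type 2 cells. A planned minimum of 10 cells per tumor was met by 1 tumor, so all 7 were used, a choice made after the cell numbers were seen. The code was tested on simulated data. Of the gene test, the 5 genes of smallest p in each direction at 0.1 or more UMIs per 10000 were named, as no gene passed. Of each list the 4 most abundant and the 2 with the largest change among those tested were eligible. Any other gene named (such as Il12a, Cxcl10 or the program genes given in the descriptions) was chosen after its values were seen. Depth was 1095 to 27526 UMIs per member. Percentages of cells with a UMI depend on depth and on free RNA. Tumor-side and Cd3 cells are given beside some of them. These cells may express the genes themselves, so their percentages do not measure free RNA. Promoters were taken from RefSeq. The line's full genotype and the values of some genes are not reported here.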

Additional observations from a re-analysis of the deposited data

Results flagged for a closer look

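In the 4 irradiated tumors, 89 values were tested for a tumor that stands apart from its group, and 8 (8.99%) were marked. The limit used marks about 1 in 20 independent, normally distributed values. Many values here are sparse counts, and some share a cell, so 8.99% cannot be set against that rate. The 3 control tumors are too few for this test. Values are UMIs per 10000 over the summed members of a tumor. In irradiated tumor 4, the proliferation genes Top2a (4.75 against 0 to 0.625 in the others), Mki67 (1.66 against 0 to 0.166) and Ube2c (2.21 against 0) stood apart. A single cell near the edge of the gate (27526 UMIs, 2 Ccr7 UMIs and 1 of Fscn1 and Ccl22 together) held all 43 Top2a, 13 of 15 Mki67 and 19 of 20 Ube2c UMIs, and without it the levels were 0, 0.318 and 0.159. In irradiated tumor 1, Cd86 was 17.2 against 9.40 to 10.6 and Actg1, an actin gene, 78.3 against 44.9 to 46.0. In irradiated tumor 2, with 4 members, Cdkn1a was 0.562 against 2.15 to 2.35 and Arhgap24 1.68 against 0 to 0.156, with the UMIs of each gene in 1 cell. In irradiated tumor 3, Cxcl9 was 15.2 against 0 to 1.33, with 85 of 92 UMIs in 1 of 6 cells and a level of 1.51 without it.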

How the results depend on the processing

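Each tumor had 4 to 13 members with 35613 to 95252 UMIs in all, which limits the precision of every value. Without control replicate 2 the difference in share of Ptprc-positive cells was -0.0218 points. The difference in share of dendritic cells was 4.50 points when cells were thinned to 2000 UMIs (48 members had as many) and 0.372 without irradiated replicate 1. Leaving out 1 tumor at a time gave 0.0253 to 0.0765 points of retained, -0.0218 to 0.0830 of Ptprc-positive and -6.94 to 0.372 of dendritic cells. No share passed the threshold of 0.05 under any alternative. With 1 tumor left out, within the technical sets or by replicate block, too few arrangements exist for a p under 0.05. Those alternatives could not pass whatever their values, so only the sizes of their differences are informative. Testing every gene with at least 1 UMI called 7 genes, Pde4d and Top2a higher and Arhgap24, Sox5, Csrp2, Ccl5 and Tnfsf9 lower, and 386 had an unadjusted p under 0.05. Of these, Sox5 (28 UMIs), Csrp2 (31) and Top2a (48) had UMIs in 2, 4 and 3 tumors, and 1 cell held 43 of those of Top2a. DESeq2 called 1 gene (Pde4d). Leaving out 1 tumor called 0 to 1 genes, the 1 being Arhgap24 without irradiated replicate 2. The interaction had 2 calls with every gene of at least 1 UMI (Cxcl2 and Arhgap24) and 0 to 1 with 1 tumor left out, the 1 being Cxcl2 without irradiated replicate 2. The causes were not tested, beyond the number of genes and tumors that each alternative holds. Of 1177 values of 76 named genes under alternatives, 124, in 41 genes, had the opposite sign, and 0 of 137 did for the 10 genes with the smallest p.

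Same-numbered tumors had correlations of deviations from their group means of -0.168, -0.048 and -0.042. With so few members per tumor, these values cannot decide whether the replicate numbers pair the tumors. With the number as a replicate block, the differences in share were 0.0253, 0.0299 and -0.733 points, and 0 genes were called (29 at an unadjusted p under 0.05).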

Other observations

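Of 20 apoptosis regulators, 17 had UMIs in the members, 12 stood at a higher pooled level than in the other dendritic cells, and 6 were higher in every tumor. Of 3147 genes with at least 0.5 UMIs per 10000, 398 were higher in every tumor. The share of all genes with a higher pooled level was not computed. The genes of this paragraph were named after their values were seen. Bcl2a1b, an antiapoptotic BCL2 relative nearly identical in sequence to Bcl2a1d so that its own count is uncertain, was found in 47 of 54 members at a pooled 11.2 UMIs per 10000, against 1.84 in type 1 and 2.95 in type 2 dendritic cells. Bcl2a1d was found in 41, Cflar, an inhibitor of death receptor signaling, in 43 and Mcl1 in 49. Among transcription factors, Nr4a3, which dendritic cell migration requires, was found in 51 members (12.6 against 2.64 and 3.96), and Irf1 in 32 (5.59 against 0.490 and 0.488). These differences between gated classes have no test.

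Chemokine and cytokine genes divided the members unequally. No member held both Cxcl9 (8 cells) and Ccl17 (10 cells), and 36 held neither. Of the 10 cells with Ccl17, 7 held Il12b, and of the 8 with Cxcl9, 1 did. Of the 28 cells with Il12b, 27 held Ccl5, against 17 of the 26 without, with median depths of 7138 UMIs for cells with both and 10844 for cells with neither. Tnfsf9 and Il1r2 were found together in 15 cells, whose median was 10844 UMIs, against 6165.5 in the 18 with neither. These counts describe 54 cells of 7 tumors, in which a missing UMI is not absence of the transcript.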
